A study of Mus musculus with 6 samples.

Results

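The gonadotropin receptors Fshr and Lhcgr and the transcription factors Foxl2, Nr5a1, Nr5a2, Nr0b1, Gata4, Gata6, Nr2f2 and Tcf21 were followed in the mouse ovary. These 10 genes were taken from a list of names, and every probe carrying 1 of the names in the array files was used, which gave 12 probes of the 39429 on the array. The tissue was whole ovary of female C57BL/6J mice aged 20 weeks, from 3 SeBP1 knockouts (KO) and 3 wild types (WT), with 1 single-colour Cy3 Agilent array for each sample. SeBP1 is selenium-binding protein 1, encoded by Selenbp1, and the labels do not say which part of the gene was deleted or in which cells. The sources used here give no cycle stage. The labels leave unsaid whether the arrays come from separate animals, so p-values reflect only how far these samples scatter, which may be technical. All levels are log2 signals after subtraction of the array's own 75th percentile, and every difference is KO minus WT.

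Follicle-stimulating hormone acts through Fshr on granulosa cells, the cells that surround the oocyte and make oestradiol. Luteinising hormone acts through Lhcgr on theca cells, on granulosa cells of follicles close to ovulation and on the corpus luteum, the progesterone-producing gland that a follicle becomes after ovulation. Both receptors signal mainly through cyclic AMP, and the transcription factors described here set the identity of granulosa, theca and stromal cells or switch on the genes of steroid synthesis.

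Between 61.6% and 69.3% of the spots on an array exceeded background clearly, fewest on WT replicate 3, and replicate spots scattered more there (median CV 5.45%) than on the other arrays (2.07% to 2.70%). WT replicates 1 and 2 lay on slide 1, while the 3 KO arrays and WT replicate 3 lay on slide 2, so a comparison within a slide rests on WT replicate 3 alone. Selenbp1 had signals of -0.11, 0.02 and -0.37 in KO ovaries, against 2.68, 2.52 and 2.59 in WT ovaries, with a difference of -2.75 (SE 0.13, limma adjusted p = 0.0104). The limma adjusted p was 0.141, 0.0467 and 0.0631 without KO replicates 1, 2 and 3, and 0.167, 0.144 and 0.0186 without WT replicates 1, 2 and 3. In limma it was 0.0792 with slide as a fixed block and 0.0170 with slide as a random block. It was 0.0824 with no filter on background and 0.557 with the replicate number as a block. The difference lay between -2.84 and -2.64 with any 1 array left out. All 11 oocyte markers and all 10 granulosa markers listed for the check of the tissue were well above background on every array of at least 1 genotype. Oviduct and adipocyte markers were read as the median log2 signal relative to each marker's own mean. For 4 oviduct markers it was 1.74 in WT replicate 2, against -1.05 to -0.04 on the other arrays. For 4 adipocyte markers it was 3.43 in WT replicate 1, against -1.62 to 0.26 on the other arrays. The part of these markers in the KO minus WT differences was not tested.

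All 12 probes of the 10 genes were well above background on all 6 arrays. In limma, 0 of the 10 genes passed an adjusted p of 0.05, and 0 had an unadjusted p under 0.05. Of all 24415 probes tested, 0.0041% passed the adjusted threshold, and 3.95% had an unadjusted p under 0.05. Each of the 12 probes had an adjusted p of 1.00 in limma, so the differences below are given as measured values with their 95% confidence intervals. The KO mean was higher for 5 genes and lower for 5 by the brightest probe of each, and over all tested probes it was higher for 45.7% and lower for 54.3%. The median difference was 0.016 over the 10 genes, against -0.017 over all tested probes.

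**Figure D1:**
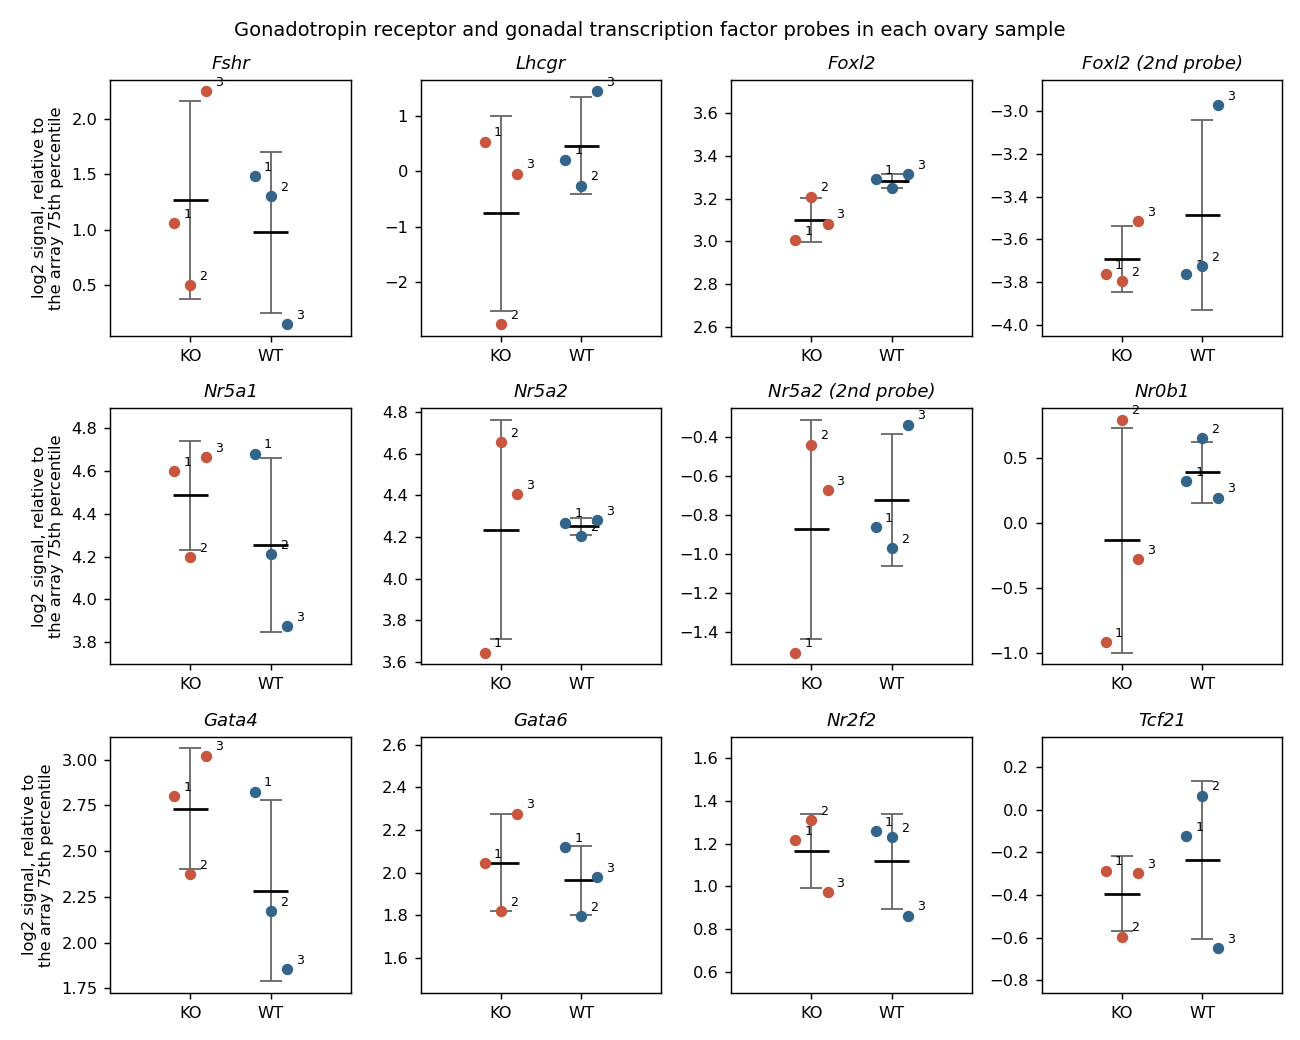
Log2 signal minus the array's 75th percentile (vertical axis, own scale in each panel) for each of the 12 probes, with KO ovaries left of WT ovaries. Points are single arrays with their replicate number and the thick lines with bars are group means ± SD (n = 3 each); Lhcgr spans -2.77 in KO replicate 2 to 1.44 in WT replicate 3, while the brighter Foxl2 probe stays between 3.01 and 3.31.

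Fshr and Lhcgr lie on the same chromosome, and their probes are 243 kb apart in build mm9. The Fshr probe covers chr17:89384292-89384351 and the Lhcgr probe chr17:89141300-89141359, both on the minus strand. The 250 bases before each start, from RefSeq on GRCm38.p6, are shown to set the receptor promoters side by side, 5′ to 3′, with the CACGTG motif (an E-box) in capitals. The Fshr stretch is chr17:89200676-89200925 and the Lhcgr stretch chr17:88792015-88792264, both on the minus strand.
Fshr upstream: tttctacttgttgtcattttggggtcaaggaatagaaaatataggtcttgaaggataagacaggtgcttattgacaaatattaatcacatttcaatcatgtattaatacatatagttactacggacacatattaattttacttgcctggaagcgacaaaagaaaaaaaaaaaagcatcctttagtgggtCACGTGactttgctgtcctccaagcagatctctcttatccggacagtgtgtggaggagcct
Lhcgr upstream: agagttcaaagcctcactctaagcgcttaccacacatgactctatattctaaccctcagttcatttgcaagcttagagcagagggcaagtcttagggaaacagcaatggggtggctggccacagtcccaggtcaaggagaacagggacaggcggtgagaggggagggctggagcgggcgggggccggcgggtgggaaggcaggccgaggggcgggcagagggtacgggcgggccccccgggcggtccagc
The stretches differ in composition, with 36.8% G and C for Fshr and 63.2% for Lhcgr. CACGTG occurs 1 time in the Fshr stretch, starting 61 bases before the start, and 0 times in the Lhcgr stretch. The motif, which reads the same on both strands, is held by 6.02% of 32851 mouse promoters of the same length. The letters AAGGTCA, which NR5A receptors bind, and AGATAA, which GATA factors bind, were searched on both strands and had 0 matches in either receptor stretch, against 4.08% and 9.99% of all promoters. Of the 10 genes, 7 matched the promoter table, with 8 promoters. Among these 8, AGATAA was found in 1 of the Nr5a2 promoters and in that of Tcf21, and AAGGTCA in none.

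Fshr, the follicle-stimulating hormone receptor, had signals of 1.06, 0.50 and 2.25 in KO ovaries, against 1.49, 1.31 and 0.14 in WT ovaries. KO replicate 3 was the highest array and WT replicate 3 the lowest, and the groups overlapped. The means were 1.27 ± 0.90 in KO and 0.98 ± 0.73 in WT (SD, n = 3 each), a difference of 0.29 (SE 0.54, 95% confidence interval -1.003 to 1.58). Its sign turned to -0.20 without KO replicate 3 and to -0.13 without WT replicate 3, and within slide 2 the difference was 1.12. The 6 arrays spanned 2.11 log2 units, or 4.31-fold, and 2.96% of all tested probes spanned more.

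Lhcgr, the luteinising hormone receptor, had signals of 0.53, -2.77 and -0.05 in KO ovaries, against 0.21, -0.26 and 1.44 in WT ovaries. KO replicate 2 lay far below every other array, and WT replicate 3 was the highest. The means were -0.76 ± 1.76 in KO and 0.46 ± 0.88 in WT (SD, n = 3 each), a difference of -1.22 (SE 0.90, 95% confidence interval -3.41 to 0.96). Without KO replicate 2 the difference was -0.22, without KO replicate 1 it was -1.87, without WT replicate 3 it was -0.73, within slide 2 it was -2.20, and with array weights in limma it was -0.35. The span of 4.21 log2 units, or 18.5-fold, was exceeded by 0.348% of all tested probes. In bulk tissue, fewer cells of a type and less RNA per cell cannot be told apart.

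The median of the corpus luteum markers followed the same order of extremes in the KO ovaries, with replicate 1 highest and replicate 2 lowest. All 9 listed markers were well above background on every array of at least 1 genotype. Of the 9, 2 had a higher KO mean, and none passed in limma or had an unadjusted p under 0.05. For Hsd3b1, 1 of those 2, the only WT value was that of WT replicate 3. Akr1c18, the other, had a difference of 1.36 (SE 1.74), the largest in size of the 9. It was lowest in WT replicate 3, at -2.23, and highest in KO replicate 3, at 3.76. Without KO replicate 2, 5 of the 9 had a higher KO mean. Over the 8 with a value on every array, the median log2 signal relative to the marker's own mean was 1.22, -2.04 and 0.07 in KO ovaries, against -0.04, 0.16 and 0.89 in WT ovaries. The summed linear level of these 8, in multiples of the 75th percentile, lay between 30.8 and 197 in KO ovaries and between 120 and 198 in WT ovaries, with the lowest value in KO replicate 2. Granulosa markers, by their median, ran lowest in WT replicate 3, as Fshr did. Their median relative to their own mean was -0.30, 0.06 and 0.44 in KO ovaries, against 0.17, 0.08 and -0.47 in WT ovaries, and their summed level lay between 169 and 253 in KO ovaries and between 141 and 213 in WT ovaries. The KO mean was higher for 8 of the 10 granulosa markers, none passed in limma and 1 had an unadjusted p under 0.05, and it was higher for 4 of them without KO replicate 3 or without WT replicate 3. The part of these cell-type markers in the receptor levels was not tested.

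**Figure D2:**
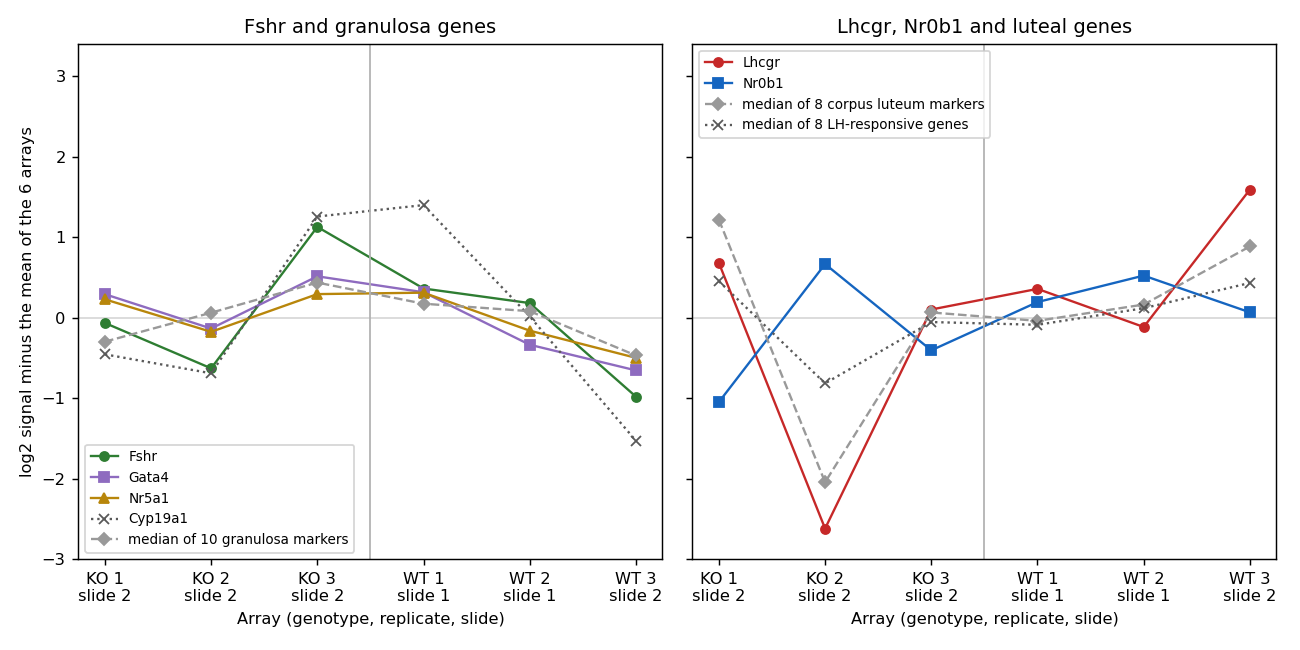
Log2 signal minus the mean of the 6 arrays (vertical axis) by array, KO left and WT right, with the slide of each array; single genes and medians of marker lists are the lines. Lhcgr and the median of the 8 luteal markers are both lowest in KO replicate 2 (the median at -2.04). Fshr and the median of the 10 granulosa markers are both highest in KO replicate 3, the median at 0.44.

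The genes whose array-to-array pattern was closest to that of each receptor were found by the root mean square difference of gene-centred log2 signals over the 6 arrays, among 13816 genes. For Fshr these were Rasd1, a Ras-related GTPase, at 0.13, Masp1, a complement protease, at 0.16, Nupr1 at 0.22, Penk, the enkephalin precursor, at 0.24 and Scgb3a1, a secretoglobin, at 0.25. Rasd1 had signals of 1.60, 1.00 and 2.73 in KO ovaries, against 2.27, 1.70 and 0.84 in WT ovaries. For Lhcgr they included the membrane transporter Abcb1b at 0.25, the glucuronosyltransferase Ugt1a6b at 0.27, the cholesterol hydroxylase Ch25h at 0.33 and the phospholipid transporter Abcb4 at 0.35. Abcb1b had signals of 2.76, -0.45 and 2.30 in KO ovaries, against 1.95, 2.31 and 3.69 in WT ovaries. Like Lhcgr, it was lowest in KO replicate 2 and highest in WT replicate 3, which largely follows from its choice by closest pattern. Some of these distances depend on single arrays: without KO replicate 2 they were 0.092 for Nupr1 and 0.15 for Penk, without WT replicate 1 0.12 for Abcb1b, and without WT replicate 3 0.11 for Ugt1a6b. With any 1 array left out, Rasd1 stayed between 0.099 and 0.14 and Masp1 between 0.13 and 0.17. The search for the closest genes was not repeated on fewer arrays.

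Foxl2, a forkhead factor that maintains granulosa identity, has a pair of probes on the plus strand of chromosome 9. They are shown because they overlap in the genome, with the 12 shared bases in capitals. The upstream probe covers chr9:98856846-98856905 and the downstream probe is mapped to chr9:98856894-98856950, with 3 further bases before the mapped part.
Foxl2 upstream probe: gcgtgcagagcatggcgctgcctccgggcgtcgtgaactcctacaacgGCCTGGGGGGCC
Foxl2 downstream probe: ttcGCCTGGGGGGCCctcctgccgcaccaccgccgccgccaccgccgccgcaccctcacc
The shared bases are 49 to 60 of the upstream probe and 4 to 15 of the downstream probe, counted from the 5′ end. G and C make up 71.7% of the upstream probe and 81.7% of the downstream one.

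The downstream probe had signals of 3.01, 3.21 and 3.08 in KO ovaries, against 3.29, 3.25 and 3.31 in WT ovaries. All 3 KO values lay below all 3 WT values, and this was the only 1 of the 12 probes whose groups did not overlap, against 8.66% of all tested probes with a value on every array, made up of 4.69% with KO lower and 3.97% with KO higher. The means were 3.10 ± 0.10 in KO and 3.28 ± 0.03 in WT (SD, n = 3 each), a difference of -0.19 (SE 0.10, 95% confidence interval -0.43 to 0.06), or 0.879-fold. The difference was -0.21 within slide 2. The upstream probe had signals of -3.76, -3.80 and -3.52 in KO ovaries, against -3.76, -3.72 and -2.97 in WT ovaries, and here the groups overlapped and WT replicate 3 was highest. Its difference was -0.21 (SE 0.23, 95% confidence interval -0.77 to 0.36), within slide 2 it was -0.72 and without WT replicate 3 it was 0.05. The downstream probe spanned 0.31 log2 units over the 6 arrays, and 79.7% of all tested probes spanned more.

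Nr5a1, or steroidogenic factor 1, binds the promoters of steroid-synthesis genes. Its probe at chr2:38548180-38548239 (minus strand) had signals of 4.60, 4.20 and 4.66 in KO ovaries, against 4.68, 4.21 and 3.87 in WT ovaries. WT replicate 3 was the lowest and the groups overlapped, with a difference of 0.23 (SE 0.24, 95% confidence interval -0.34 to 0.80). The value was 0.61 within slide 2 and 0.04 without WT replicate 3.

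Nr5a2, or liver receptor homolog 1, is the related receptor of granulosa and luteal cells that is needed for ovulation. The brighter of its probes, at chr1:138740903-138740962 (minus strand), had signals of 3.65, 4.66 and 4.41 in KO ovaries, against 4.27, 4.20 and 4.28 in WT ovaries. The KO arrays lay on both sides of the WT arrays, which were close together. The means were 4.24 ± 0.53 in KO and 4.25 ± 0.04 in WT (SD, n = 3 each), a difference of -0.016 (SE 0.26, 95% confidence interval -0.64 to 0.61). The other probe, at chr1:138741712-138741771, had signals of -1.51, -0.44 and -0.67 in KO ovaries, against -0.86, -0.97 and -0.34 in WT ovaries, a difference of -0.15 (SE 0.31), or -0.54 within slide 2. Both probes were lowest in KO replicate 1.

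Nr0b1, or Dax1, is a repressor that binds Nr5a1 and Nr5a2. Its probe at chrX:83441169-83441228 (plus strand) is printed in 10 spots and had mean signals of -0.92, 0.79 and -0.28 in KO ovaries, against 0.32, 0.65 and 0.19 in WT ovaries. KO replicate 2 was the highest array and KO replicates 1 and 3 the lowest, so the WT values lay inside the KO range. The means were -0.14 ± 0.87 in KO and 0.39 ± 0.24 in WT (SD, n = 3 each), a difference of -0.52 (SE 0.42, 95% confidence interval -1.54 to 0.49). It was -0.13 without KO replicate 1 and -0.99 without KO replicate 2, and -0.33 within slide 2. The SD between the spots on an array was 0.026 to 0.042 in KO and 0.027 to 0.077 in WT, whereas the arrays spanned 1.71 log2 units, a span exceeded by 5.0% of all tested probes.

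Gata4 and Gata6 are zinc-finger factors of granulosa and theca cells that act on steroidogenic promoters. Gata4, at chr14:63817858-63817917 (minus strand), had signals of 2.80, 2.37 and 3.02 in KO ovaries, against 2.83, 2.17 and 1.85 in WT ovaries. KO replicate 3 was the highest and WT replicate 3 the lowest, with overlap between the groups, and the difference was 0.45 (SE 0.29, 95% confidence interval -0.24 to 1.14). It was 0.88 within slide 2 and 0.23 without WT replicate 3. Gata6, whose probe lies on chromosome 18, had signals of 2.04, 1.82 and 2.28 in KO ovaries, against 2.12, 1.80 and 1.98 in WT ovaries, a difference of 0.08 (SE 0.16, 95% confidence interval -0.29 to 0.46). The Gata6 groups overlapped, and the highest array was KO replicate 3.

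Nr2f2, or COUP-TFII, marks theca and stromal cells. Its probe at chr7:77496873-77496932 (minus strand) had signals of 1.22, 1.31 and 0.97 in KO ovaries, against 1.26, 1.23 and 0.86 in WT ovaries. Replicate 3 was the lowest array of each group, and the difference was 0.05 (SE 0.16, 95% confidence interval -0.33 to 0.43), or 0.30 within slide 2. Tcf21, a basic helix-loop-helix factor of stromal and theca progenitor cells, had signals of -0.29, -0.60 and -0.30 in KO ovaries, against -0.13, 0.07 and -0.65 in WT ovaries at chr10:22537563-22537622 (minus strand). WT replicate 3 was the lowest array and WT replicate 2 the highest, so the KO values lay inside the WT range. The difference was -0.16 (SE 0.21, 95% confidence interval -0.66 to 0.35), and within slide 2 it was 0.26.

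**Figure D3:**
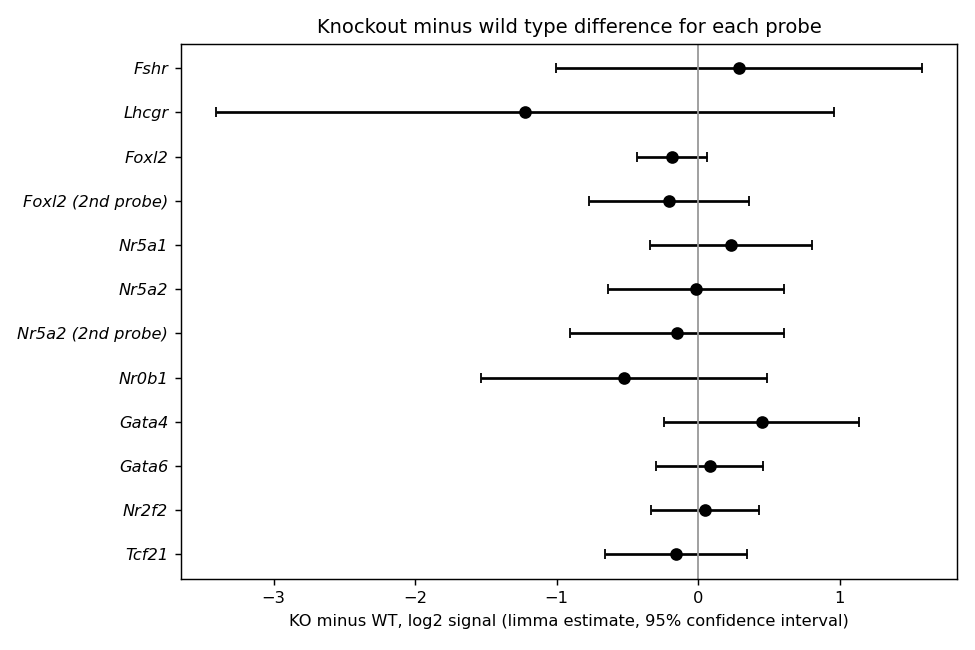
KO minus WT difference in log2 signal (horizontal axis) for each of the 12 probes, with points as limma estimates and bars as 95% confidence intervals (n = 3 each). The 2nd Foxl2 probe is the upstream one; every interval includes 0, and the widest is that of Lhcgr, -3.41 to 0.96.

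The genes that carry or answer the gonadotropin signal were read from lists. All 18 listed genes of signal transduction below the receptors, such as G proteins, adenylyl cyclases, protein kinase A subunits and phosphodiesterases, were kept. The KO mean was higher for 7 and lower for 11 of them, none passed in limma or had an unadjusted p under 0.05, and their median difference was -0.020, or -0.15 within slide 2. With any 1 array left out the median lay between -0.038 and 0.032. Prkar2b, a protein kinase A regulatory subunit of granulosa cells, had signals of 5.46, 5.99 and 6.36 in KO ovaries, against 6.30, 6.02 and 5.37 in WT ovaries, a difference of 0.04 (SE 0.31), or 0.57 within slide 2. The cyclic AMP phosphodiesterase Pde4d had a difference of -0.021 (SE 0.19), or -0.16 within slide 2.

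Of 11 granulosa genes that follicle-stimulating hormone induces, the KO mean was higher for 7 and lower for 4, with a median difference of 0.075 and none past the adjusted threshold in limma, while 1 had an unadjusted p under 0.05. Within slide 2 the median was 0.55, and it was -0.071 without KO replicate 3 and -0.11 without WT replicate 3. Most of this list repeats the granulosa markers, since Cyp19a1, Inha, Inhbb, Ccnd2, Hsd17b1, Fst, Gja1 and Kitl are in both lists. Cyp19a1, the aromatase that makes oestradiol, had signals of 2.52, 2.28 and 4.23 in KO ovaries, against 4.37, 2.99 and 1.44 in WT ovaries. It was lowest in WT replicate 3, like Fshr, and its difference was 0.075 (SE 0.83), or 1.57 within slide 2. Inha, the inhibin alpha subunit, had a difference of 0.043 (SE 0.18), or 0.36 within slide 2.

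Of 15 genes that answer luteinising hormone, 8 were kept. Among these 8 the KO mean was higher for 1 and lower for 7, with a median difference of -0.30 (-0.59 within slide 2), and in limma none passed or had an unadjusted p under 0.05. The higher 1 was Tnfaip6, at 1.74 (SE 0.73), the largest difference in size, while the 7 lower ones reached -1.15. Tnfaip6 signals were low, at -5.06 to -2.03 in KO ovaries and -5.54 to -4.67 in WT ovaries. The median of the 8 relative to each gene's own mean was lowest in KO replicate 2, at -0.81. The median of the luteal markers was lowest there too, and Star and Cyp11a1 are in both lists. The summed level of the 8 was 25.9 in KO replicate 2 and lay between 72.8 and 124 on the other arrays. Cyp11a1 was the largest part of that sum on every array. Its signal was 3.93 in KO replicate 2 and 5.89 to 6.62 on the others. Without KO replicate 2 the median difference was -0.066 and 5 of the 8 had a lower KO mean, and without WT replicate 3 it was 0.026 and 4 had a lower one. The part of the luteal markers in these differences was not tested. The 7 that were not tested were Areg, Ereg, Btc, Pgr, Ptgs2, Has2 and Sult1e1. Areg, an epidermal growth factor-like ligand released at ovulation, was well above background on 1 KO and 1 WT array. Of the Pgr probes, for the progesterone receptor, 1 was well above background on 0 KO arrays and 2 WT arrays, and the other on 0 arrays of either genotype. Those 2 WT arrays are the ones on slide 1. They are also the arrays with the highest adipocyte (WT replicate 1) and oviduct (WT replicate 2) marker levels. The part of these in the Pgr signal was not tested. Of 9 steroidogenic target genes the KO mean was higher for 4 and lower for 5, with a median of -0.24 (-0.65 within slide 2) and none past the threshold in limma. The median was -0.036 without KO replicate 2 and -0.088 without WT replicate 3. The summed level of the 8 measured on every array was also lowest in KO replicate 2, at 128 against 220 to 377 on the others. Of those 8, Star, Cyp11a1 and Scarb1 are luteal markers too. Hsd3b1, also a luteal marker and 1 of the 4 with a higher KO mean, is outside the 8. Its only WT value was that of WT replicate 3.

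The partners of the transcription factors had differences between -0.32 and 0.12. Of 14 listed cofactors 13 were kept, with a higher KO mean for 5, a lower one for 8, a median of -0.063 and none past the threshold in limma. The sign of that median turned to 0.069 within slide 2 and to 0.025 without WT replicate 1. Zfpm2, the cofactor of Gata4 also known as Fog2, had a difference of -0.072 (SE 0.28; 0.30 within slide 2), and Wt1 of -0.10 (SE 0.21; 0.19 within slide 2). All 14 other somatic transcription factors of the gonad were kept, 8 with a higher and 6 with a lower KO mean, a median of 0.024 and none past the threshold in limma, while 2 had an unadjusted p under 0.05. That median was 0.23 within slide 2, -0.076 without KO replicate 2 and -0.020 without WT replicate 3. Esr2, the oestrogen receptor of granulosa cells, had a difference of 0.19 (SE 0.26; 0.37 within slide 2), and Nr2f1, the relative of Nr2f2, of -0.014 (SE 0.16). Foxl2 is known to hold down testis genes in the ovary. Of 5 listed testis-side genes 4 were kept, 2 with a higher and 2 with a lower KO mean and none past the threshold in limma. Dhh, 1 of the 2 higher ones at 0.38 (SE 0.24), had signals of 2.11 to 3.21, and Ptgds 0.56 to 1.61. Signals were far lower for Sox9, at -4.04 to -3.33, and Dmrt1, at -3.07 to -2.82. Whether Foxl2 acts on these genes here was not tested. Sox9 had a difference of -0.099 (SE 0.20; 0.17 within slide 2) and Dmrt1 of 0.12 (SE 0.10; 0.0046 within slide 2).

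**Figure D4:**
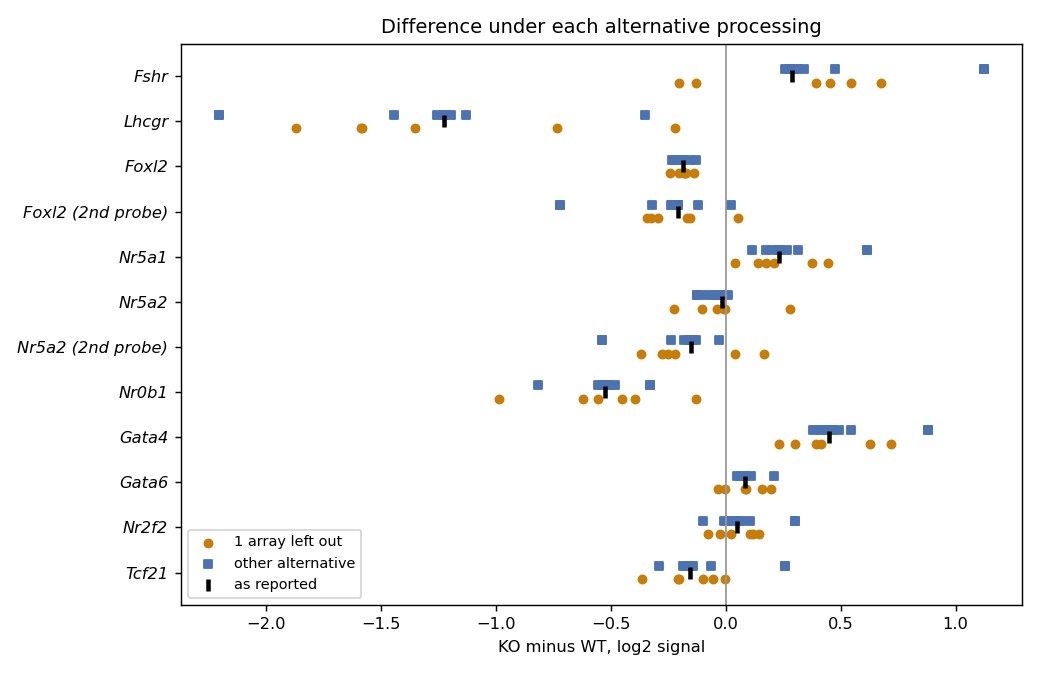
KO minus WT difference in log2 signal (horizontal axis) of the 12 probes as reported (black bars), with 1 array left out (circles) and under each other alternative (squares). The brighter Foxl2 probe stays below 0, between -0.24 and -0.13, as do Lhcgr and Nr0b1, while Nr5a1 and Gata4 stay above 0. Fshr and the 2nd Foxl2 probe are among those that lie on both sides of 0.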

How the data were processed

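Ovary RNA of 3 KO and 3 WT samples, grouped by the labelled genotype, was measured on single-colour arrays. Per the file headers, the authors' scanner output came from version 10.7.1.1 of Agilent Feature Extraction, with mm9 coordinates, and gives linear intensity after background subtraction, not normalized between arrays. A deposited table of the whole series has intensity with an equal median of 119.8 in all columns; the sources used here do not state its making.

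Spots marked as outliers (192 to 459 per array) were left out, spots of a probe were averaged, and log2 of the processed intensity that the authors deposited was taken minus the 75th percentile of 43020 spots that were not controls. No spot was saturated. A probe was kept if every array of either genotype (3 arrays) showed it well above background, leaving 24415 of 39429 probes. Genotypes were tested in limma 3.58.1 (R 4.3.3; lmFit, eBayes), two-sided, without covariates, with Benjamini-Hochberg adjustment over all kept probes. The test was checked on simulated data. The brightest probe stood for a gene in lists. The number of arrays limits the precision.

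The rule for named genes took all 10 genes with every probe, Selenbp1, 12 examples from the lists, any list gene past the threshold, and the 5 genes closest in pattern to each receptor, leaving out clone and predicted names. Among the genes so chosen, 1 is not reported here. Members and lists were chosen with earlier results of these data known. Motifs were searched in RefSeq promoters. Plots used matplotlib 3.10.9 and tables pandas 2.3.3 with numpy 2.4.6, under Python 3.11.15. Alternatives covered background correction, normalization, the filter, the slide, array weights, the replicate block and leaving out each array.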

Additional observations from a re-analysis of the deposited data

How the results depend on the processing

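No gene of the 10 passed the adjusted threshold under any of the 18 alternatives in limma, where the lowest adjusted p was 0.324 and 0 to 2 of them had an unadjusted p under 0.05 (2 on the shared slide alone, where the lone WT array is assumed to vary like the KO arrays). Over all probes limma called 1, and 0 with no filter on background, with slide as a fixed block, on the shared slide alone or with the replicate block; leaving out 1 array gave 0 to 19, namely 0 without KO replicate 1, KO replicate 3, WT replicate 1 or WT replicate 2 and 19 without WT replicate 3. The replicate numbers used here follow sample order, and the sample titles are not numbered alike in the KO and WT groups. Same-numbered arrays deviated together with r of -0.33, 0.30 and -0.027, and unlike-numbered ones with r of -0.30 to 0.36. With 3 arrays per genotype these values cannot exclude a pairing, nor can the 0 calls with the block.

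Signs turned for these probes, and the cause was not tested. With slide as a fixed block or on the shared slide, Tcf21 was 0.26, Zfpm2 0.30, Wt1 0.19 and Sox9 0.17, and with slide as a random block Zfpm2 was 0.011. With array weights the upstream Foxl2 probe was 0.025, Nr2f2 -0.097, Prkar2b -0.053, Pde4d 0.076, Inha -0.029 and Nr2f1 0.028. With normexp Nr2f2 was -0.0091, Prkar2b -0.26 and Inha -0.26. With quantile normalization Prkar2b was -0.19, Inha -0.19 and Cyp19a1 -0.015, and in the series table Inha was -0.065 and Nr5a2 0.012.

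Leaving out 1 array gave a range of -0.20 to 0.68 for Fshr, -1.87 to -0.22 for Lhcgr, -0.24 to -0.14 for the downstream Foxl2 probe, -0.34 to 0.052 for the upstream one, 0.040 to 0.44 for Nr5a1, -0.23 to 0.28 and -0.37 to 0.17 for the Nr5a2 probes, -0.99 to -0.13 for Nr0b1, 0.23 to 0.72 for Gata4, -0.033 to 0.20 for Gata6, -0.079 to 0.15 for Nr2f2 and -0.36 to -0.0049 for Tcf21. For the other named genes it was -0.23 to 0.28 for Prkar2b, -0.17 to 0.12 for Pde4d, -0.67 to 0.79 for Cyp19a1, -0.12 to 0.15 for Inha, -0.34 to 0.090 for Zfpm2, -0.27 to 0.025 for Wt1, -0.071 to 0.44 for Esr2, -0.13 to 0.10 for Nr2f1 and -0.23 to 0.12 for Sox9.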
